A study of Gallus gallus with 33 samples.

Results

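KLF5 and COPEB, the older name of KLF6, are zinc finger transcription factors of the Kruppel-like family. They were followed after laser wounding in cultured sensory epithelia (SE) of the utricle, an organ of balance in the chick. These are 2 of the 1516 probes analysed on the arrays, taken by the gene names in the channel files. The pair was chosen because KLF5 was lower at 30 min, so the 30 min values of both genes are a description and carry no test. In the chicken gene table of assembly GRCg7b, used here for names alone, KLF5 lies on chromosome 1 and KLF6 on chromosome 2. The array names 16 members of the wider KLF and SP family, and all 16 matched a gene of that table.

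Kruppel-like factors bind GC-rich promoter elements through a zinc finger domain at the end of the protein, and the SP proteins share that domain. In mammals, KLF5 is found in dividing cells of epithelia such as the intestinal crypt, where it favours proliferation. KLF6, first described as a core promoter element binding protein, is known in mammals as an early gene of injured liver and blood vessel, and it can restrain cell division. The utricle SE holds hair cells and supporting cells, and in birds the supporting cells divide after damage.

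Linear wounds were cut with a pulsed laser into cultured SE from White Leghorn chicks. Recovery lasted 30 min, 1 hr or 2 hr, and at most 3 hr. Time-matched control cultures were taken out of the incubator beside them and were not wounded. Each array compared laser with control RNA, both amplified, on oligonucleotides designed to human genes and used across species on chick RNA. There were 5 arrays from 2 biological samples at 30 min, 6 from 2 at 1 hr, 8 from 2 at 2 hr and 14 from 3 at 3 hr, each sample a pool of several cultures. Arrays of 1 sample repeated the hybridization of the same RNA pair, with the dyes in either order, so the sample and not the array is the replicate. Since whole cultures were pooled, fewer cells of a type and less RNA per cell cannot be told apart.

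Some samples stood apart before any gene was looked at. In 3 hr replicate 1 the log2 ratios spread over the tested probes with an SD of 1.04, against 0.161 to 0.406 in the other 8 samples. Of its 6 arrays, 4 held spots with blank gene names and had the earliest image dates. Such arrays are called the earlier print here, a name that the sample titles do not give. In 4 samples (1 hr replicate 2, 2 hr replicate 2, 3 hr replicate 2 and 3 hr replicate 3) the arrays with laser RNA in Cy3 and those with it in Cy5 correlated at -0.375 to -0.798 over the tested probes, although the dye of the laser RNA was the same in the titles and in the image names. Their direction is therefore not settled, and results are also given with either orientation turned. On 2 arrays the files of the Cy3 and Cy5 images had changed places, and the image name in the header was followed. Both had laser RNA in Cy3, 1 in 2 hr replicate 2 and 1 in 3 hr replicate 2, which are among the unsettled samples. Since 3 hr replicate 2 has only 1 array in each orientation, this reading sets the sign of its correlation. Only 378 probes (24.9%) were bright enough to be tested, meaning that 1 channel or both passed a signal of 1000 on 50% or more of the arrays. Both genes were among them. Of the transcription factors that mark cell types, 0 of 4 for hair cells passed this limit, and SOX2, a gene of supporting cells, passed it. For neurons 3 of 4 passed (NEUROG1, POU4F1 and ISL1), and for stroma, melanocytes and blood 0 of 3, 0 of 2 and 0 of 2. Markers of hair cells were thus below the limit on these arrays.

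Spots of KLF5 stood well above background on most arrays, and those of COPEB on fewer. The signal of a spot depends on how well the human oligonucleotide binds chick RNA, so it ranks spots on an array and not the RNA levels of different genes. On the median array KLF5 reached percentile 96.9 of all probes in the laser channel and 96.8 in the control channel. Its signal was above 1000 in both channels on 21 of 33 arrays, which were 3 of 5 at 30 min, 1 of 6 at 1 hr, 5 of 8 at 2 hr and 12 of 14 at 3 hr. COPEB reached percentile 67.7 in the laser and 77.8 in the control channel and was above 1000 in both on 7 arrays. By a limit set on each array, the local background plus 2 SD of it, KLF5 was detectable in both channels on 26 arrays and COPEB on 15. Both duplicate spots of KLF5 gave log2 ratios that differed by a median of 0.112 within an array, those of COPEB by 0.137, and those of all tested probes by 0.128. The duplicate spots were therefore close on the typical array, while COPEB was near background on many of them.

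**Figure D1:**
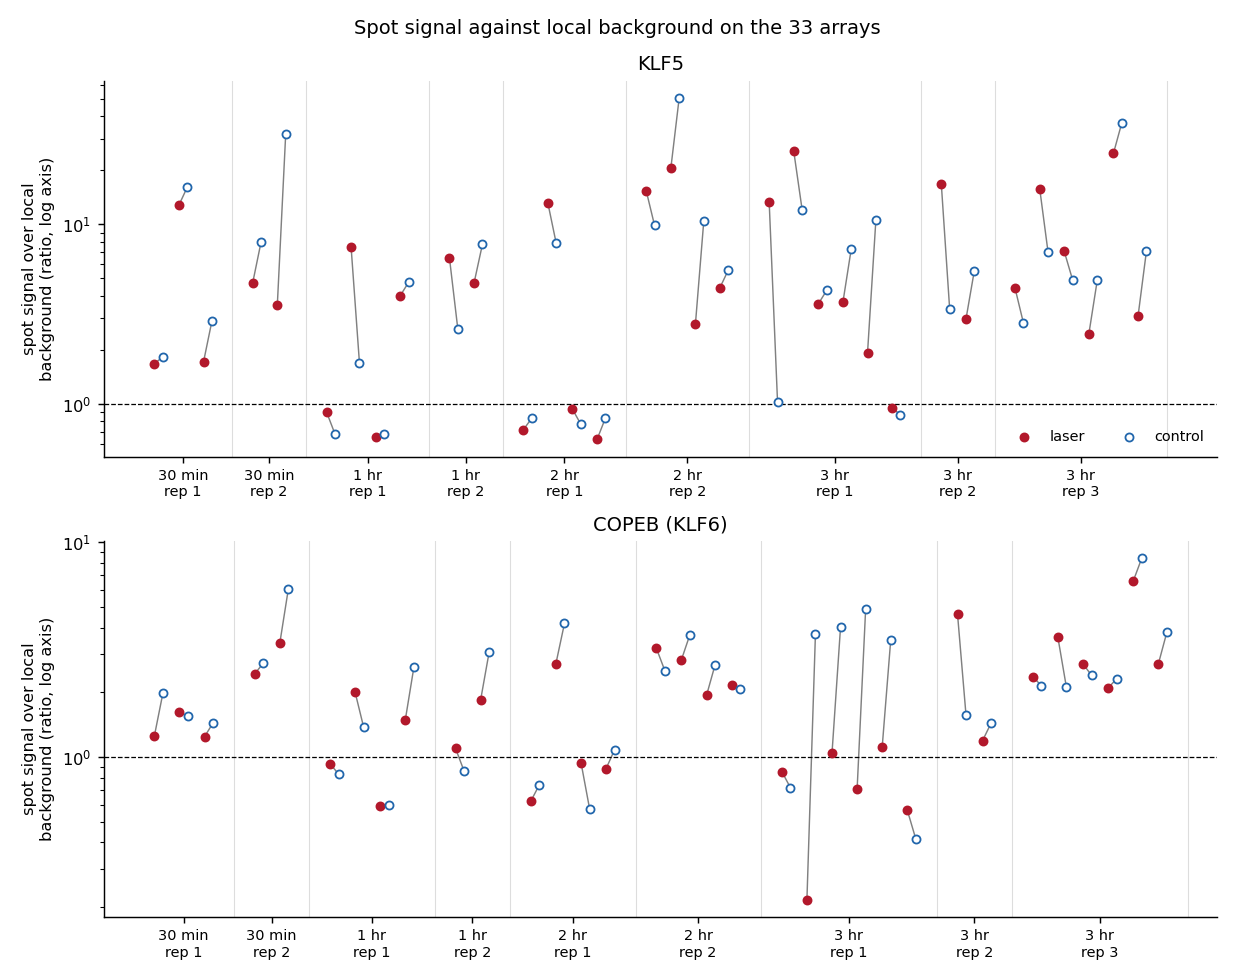
Spot signal divided by local background (log axis) for KLF5 and COPEB on each of the 33 arrays, laser channel filled and control channel open, grouped by biological sample; the dashed line marks a signal equal to background. KLF5 lay below its background in the laser channel on 6 arrays and COPEB on 9, and at 30 min the laser point of KLF5 lay below the control point on all 5 arrays.

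At 30 min KLF5 was lower in laser than in control RNA in both samples, with log2 ratios of -0.67 in replicate 1 and -1.52 in replicate 2. The mean of -1.09 ± 0.60 (SD, n = 2) corresponds to 0.468 of the control level, and it was the second lowest of the 378 tested probes at this time. On single arrays the log2 ratio was -0.75 and -0.62 with laser RNA in Cy3 and -0.65 with it in Cy5 in replicate 1. In replicate 2 it was -1.03 with laser RNA in Cy3 and -2.01 with it in Cy5. All 5 arrays lay below 0, in either dye, as did those of 1.85% of the tested probes, and both samples lay below 0 for 18% of them. These percentages are given for scale only, since the gene was chosen on this contrast. Over all tested probes the 2 dye orientations correlated at 0.306 in replicate 1 and at -0.022 in replicate 2, so in replicate 2 probes in general were not repeated between its 2 arrays.

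Before normalization the raw signal was higher in the laser than in the control channel on the 3 arrays with laser RNA in Cy3, with deposited log2 ratios of 1.45, 0.10 and 0.02, and lower on the 2 with it in Cy5, at -0.37 and -2.81. The signal divided by its local background was lower in the laser channel on all 5. In 30 min replicate 1 KLF5 stood at 1.68, 12.8 and 1.72 times background in the laser channel, against 1.83, 16.1 and 2.90 in the control channel of the same arrays. In replicate 2 it stood at 4.74 and 3.57 times background in the laser channel, against 7.99 and 31.7 in the control channel. Replicate 1 therefore held 2 arrays on which the laser spot was little above background and 1 array on which it was far above it, and their log2 ratios lay close together.

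At 30 min COPEB lay on both sides of 0. Its log2 ratio was -0.53 in replicate 1 and 0.02 in replicate 2, a mean of -0.25 ± 0.39 (SD, n = 2). The single arrays gave -1.31, 0.17 and -0.48 in replicate 1 and -0.26 and 0.30 in replicate 2. The array at -1.31 had a signal of 1.25 times background in the laser channel and 1.98 in the control channel. COPEB was above the detection limit in both channels on 2 of the 5 arrays, both from replicate 2.

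**Figure D2:**
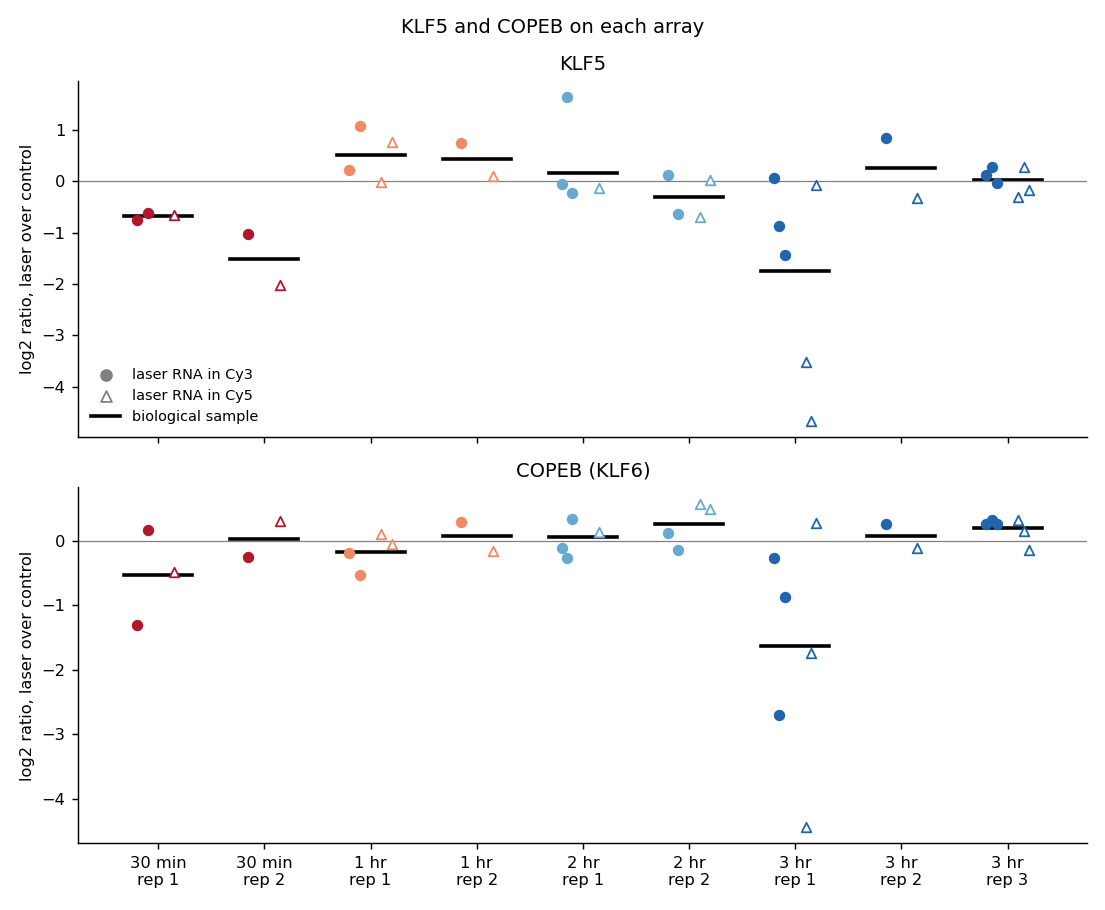
Log2 ratio of laser over control (vertical axis) on each array for KLF5 (top) and COPEB (bottom), by biological sample; circles have laser RNA in Cy3, triangles in Cy5, and the bar is the value of the sample. All 5 arrays of KLF5 at 30 min lie below 0, and 5 of 6 at 1 hr lie above it; 3 hr replicate 1 spans -4.67 to 0.06.

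At 1 hr KLF5 was on the other side of 0 in both samples, at 0.52 in replicate 1 and 0.43 in replicate 2. Their mean of 0.47 ± 0.06 (SD, n = 2) placed it at rank 373 of 378 from the lowest. The arrays of replicate 1 gave 0.22 and 1.09 with laser RNA in Cy3 and -0.01 and 0.77 with it in Cy5, and those of replicate 2 gave 0.75 in Cy3 and 0.11 in Cy5. Thus 5 of 6 arrays lay above 0, as did at least 5 of 6 for 17.2% of the tested probes, and both samples lay above 0 for 26.7% of them. The difference from 0 did not pass the test (limma, adjusted p = 0.996, 95% interval of the mean -0.60 to 1.55), nor did it without 3 hr replicate 1 (adjusted p = 0.81). The limma interval uses a spread shared over the 4 time points, with a standard error of 0.46, against 0.046 from the 1 hr samples alone.

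The arrays of KLF5 at 30 min, from -2.01 to -0.62, did not overlap those at 1 hr, from -0.01 to 1.09. Of the tested probes, 0.794% had 30 min arrays that all lay below the 1 hr arrays, and for 14.8% the samples did so. The 30 min values enter this comparison, so it was not tested. The signal of KLF5 was lower on the 1 hr arrays, where it fell below local background in both channels on 2 of 6. On those 2 arrays the log2 ratios were 0.22 and -0.01, and on the other 4, where it was detectable in both channels, they were 0.11 to 1.09. Turning either orientation of 1 hr replicate 2, whose direction is not settled, gave a 1 hr mean of 0.42 or 0.10. Its Cy3 array, at 0.75 as labelled, would lie within the range of the 30 min arrays if turned. The arrays of both times would then overlap.

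Some samples of different times shared an image date, given by the image names. On the date shared by 30 min replicate 1 and 1 hr replicate 1, with both dye orientations of each, KLF5 was at -0.70 at 30 min and 0.11 at 1 hr. The 1 hr arrays of that date were the 2 on which KLF5 lay below background. On the date shared by 30 min replicate 2 and 2 hr replicate 2 it was at -1.52 at 30 min and 0.08 at 2 hr. COPEB was at -0.90 at 30 min and -0.04 at 1 hr on the first of them and at 0.02 at 30 min and 0.30 at 2 hr on the second. Both genes thus had the lower value at 30 min on both dates, which is a description, since the 30 min values entered the choice. On the first date COPEB was above the detection limit in neither channel on any array. The direction of 2 hr replicate 2 is not settled. Its COPEB arrays of the second date were at 0.12 in Cy3 and 0.48 in Cy5, so turning the Cy5 array would reverse the order for COPEB. There were 12 image dates, 8 of which held more than 1 time point.

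At 2 hr the KLF5 samples lay on both sides of 0, at 0.17 in replicate 1 and -0.29 in replicate 2. The mean of -0.06 ± 0.33 (SD, n = 2) did not differ from 0 by the test (limma, adjusted p = 0.993, interval -1.14 to 1.01). Replicate 1 rested on a single array, at 1.64 with laser RNA in Cy3, on which the signal was 13.2 times background in the laser and 7.85 in the control channel. On its other 3 arrays, at -0.06, -0.22 and -0.12, KLF5 was below background in both channels. Replicate 2 gave 0.13 and -0.64 with laser RNA in Cy3 and -0.69 and 0.03 with it in Cy5, all on arrays where KLF5 was detectable. Turning either orientation of replicate 2, whose direction is not settled, changed the sign of the mean, to 0.10 or 0.06. The contrast of 2 hr minus 1 hr was -0.54 ± 0.65 (SE), which did not pass the test (limma, adjusted p = 0.995, interval -2.05 to 0.98). It was -0.31 without 2 hr replicate 2 and -0.035 with the Cy3 orientation of the unsettled samples turned.

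At 3 hr the mean of KLF5 took its sign from 1 sample, with the swapped Cy3 array of replicate 2 read by its header. It was -1.75 in replicate 1, 0.25 in replicate 2 and 0.03 in replicate 3, with a mean of -0.49 ± 1.10 (SD, n = 3). The mean did not differ from 0 by the test (limma, adjusted p = 0.647, interval -1.37 to 0.39), and without replicate 1 it was 0.14 (adjusted p = 0.996). In replicate 1 the arrays gave 0.06, -0.87 and -1.44 with laser RNA in Cy3 and -3.52, -4.67 and -0.07 with it in Cy5. The arrays of replicate 2 gave 0.84 in Cy3 and -0.33 in Cy5, and the 6 arrays of replicate 3 lay between -0.30 and 0.28. With either orientation of the unsettled samples turned the 3 hr mean was -0.36 or -0.81. Read by file name, the swapped array would put replicate 2 at -0.58, and the 3 hr mean with file names was -0.77. The contrast of 3 hr minus 2 hr was -0.43 ± 0.59 (SE) and did not pass the test (limma, adjusted p = 0.941, interval -1.81 to 0.96), and without 3 hr replicate 1 it was 0.20.

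In 3 hr replicate 1 even the sign of KLF5 followed the normalization within the array. With laser RNA in Cy3 its raw signal was 1248, 17492 and 14376 in the laser channel, against 96.2, 1400 and 4842 in the control channel. The deposited ratios of these 3 arrays, centred on the array median, were 2.63, 1.26 and 1.35, while after the intensity-dependent loess they were 0.06, -0.87 and -1.44. With laser RNA in Cy5 the raw signal was 2107, 1481 and 1283 in the laser channel, against 3409, 4610 and 588 in the control channel, and the centred ratios were -1.31, -2.68 and -0.17. The direction of the unloessed ratios thus went with the dye on these arrays, higher in Cy3 and lower in Cy5. With median centring in place of loess the 3 hr mean over the 3 samples was 0.0026, and from the centred deposited ratios it was 0.14.

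COPEB was close to 0 from 1 hr to 2 hr. Its samples were at -0.17 and 0.06 at 1 hr, a mean of -0.05 ± 0.17 (SD, n = 2), and at 0.06 and 0.26 at 2 hr, a mean of 0.16 ± 0.14 (SD, n = 2). Neither mean differed from 0 by limma, with adjusted p = 0.996 and an interval of -1.01 to 0.91 at 1 hr and adjusted p = 0.993 and an interval of -0.80 to 1.12 at 2 hr. With either orientation of the unsettled samples turned the 1 hr mean was 0.03 or -0.20 and the 2 hr mean -0.11 or 0.16. At 1 hr COPEB was detectable in both channels on 1 of 6 arrays and at 2 hr on 5 of 8. The contrast of 2 hr minus 1 hr was 0.21 ± 0.58 (SE), which did not pass the test (limma, adjusted p = 0.995, interval -1.15 to 1.57).

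At 3 hr COPEB, like KLF5, was low in replicate 1 alone when the swapped array was read by its header. It was -1.63 in replicate 1, 0.07 in replicate 2 and 0.19 in replicate 3, with a mean of -0.45 ± 1.02 (SD, n = 3) that did not pass the test (limma, adjusted p = 0.647, interval -1.24 to 0.33). Without replicate 1 the mean was 0.13 (limma, adjusted p = 0.996), and with either orientation of the unsettled samples turned it was -0.45 or -0.63. Read by file name, the swapped array would put replicate 2 at -0.19, and the 3 hr mean of COPEB with file names was -0.54. In replicate 1 its laser signal was above the detection limit on 0 of 6 arrays and the control signal on 4. On those 4 arrays the laser signal stood at 0.216, 1.04, 0.708 and 1.12 times background, against 3.75, 4.03, 4.88 and 3.51 in the control channel, and the log2 ratios were -2.70, -0.88, -4.44 and -1.74. The remaining 2 arrays, with both channels below background, gave -0.27 and 0.28. The contrast of 3 hr minus 2 hr was -0.61 ± 0.53 (SE), which did not pass the test (limma, adjusted p = 0.941, interval -1.85 to 0.63), and without 3 hr replicate 1 it was -0.03.

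At 1 hr, 2 hr and 3 hr 0 of the 378 tested probes passed an adjusted p of 0.05 in limma (0%), and the same held for both contrasts. An unadjusted p under 0.05 was reached by 5 probes at 1 hr (1.32%), 7 at 2 hr (1.85%), 8 at 3 hr (2.12%), 2 for 2 hr minus 1 hr (0.529%) and 6 for 3 hr minus 2 hr (1.59%). KLF5 and COPEB were in none of these sets, their lowest unadjusted p in limma being 0.231 and 0.216, both at 3 hr. The methods' t-test with biological samples as units gave an unadjusted p under 0.05 for 13 probes at 1 hr, 29 at 2 hr and 12 at 3 hr, and 0 after Benjamini-Hochberg adjustment at each. With the 4 unsettled samples left out, each of these times rested on 1 sample, assumed to vary like the 30 min pair, and 103 probes were called at 3 hr. KLF5 at -1.75 (limma, adjusted p = 0.00047) and COPEB at -1.63 (adjusted p = 0.0013) were among them, from 3 hr replicate 1 alone, as were their contrasts of 3 hr minus 2 hr at -1.92 (adjusted p = 0.019) and -1.68 (adjusted p = 0.0486).

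Over the 7 samples of 1 hr to 3 hr the mean log2 ratio of KLF5 was -0.09 ± 0.78 (SD), with 5 samples above 0 and an exact sign-flip permutation p of 0.906 (two-sided). That of COPEB was -0.16 ± 0.66 (SD), with 5 of 7 above 0 and an exact permutation p of 0.891. Without 3 hr replicate 1 the means were 0.18 ± 0.29 and 0.08 ± 0.15 (SD, n = 6), each with 5 of 6 samples above 0, and the exact permutation p was 0.219 for KLF5 and 0.25 for COPEB. The smallest p that this exact test allows is 0.0156 with 7 samples and 0.0313 with 6. As processed, both means thus took their sign from that 1 sample.

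**Figure D3:**
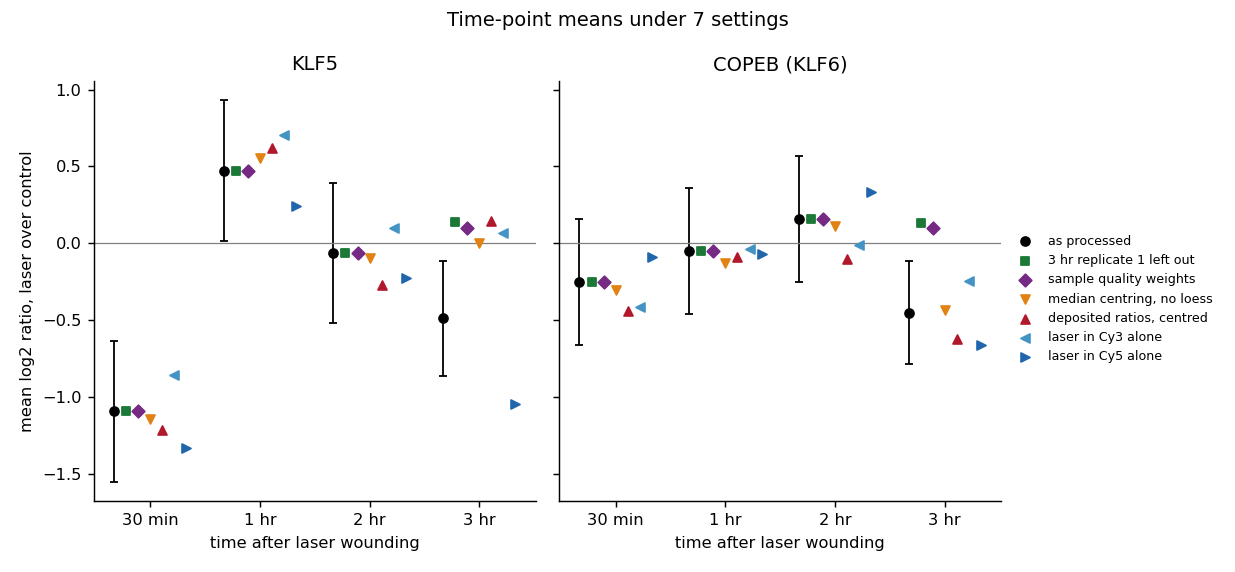
Mean log2 ratio of laser over control at each time for KLF5 (left) and COPEB (right) under 7 settings; bars are the limma standard error of the values as processed. At 3 hr the KLF5 mean is -0.49 as processed and 0.14 without 3 hr replicate 1, while at 30 min it lies between -1.33 and -0.86 in the settings shown.

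Ratios of both genes also moved with the dye. The dye part of a sample is the mean Cy5 over Cy3 log2 ratio over both orientations. It is cancelled in the sample values above where the dye of the laser RNA is as labelled. In the samples whose direction is not settled, turning 1 orientation would make laser part and dye part change places, apart from the sign. For KLF5 the dye part was below 0 in 8 of 9 samples, from -1.002 in 3 hr replicate 1 to 0.01 in 30 min replicate 1. Among the samples of settled direction it was below 0 in all but 30 min replicate 1, so there the probe was mostly brighter in Cy3. The dye part was larger in size than the laser part in 2 hr replicate 1, at -0.29 against 0.17. So it was in 3 hr replicate 2, at -0.58 against 0.25, and in 3 hr replicate 3, at -0.09 against 0.03, both of unsettled direction. In the 30 min samples it was smaller than the laser part, at 0.01 against -0.67 and -0.49 against -1.52. For COPEB the dye part lay between -0.34 and 0.28, above 0 in 5 samples and below 0 in 4. In size it exceeded the laser part in all samples but 30 min replicate 1, 3 hr replicate 1 and 3 hr replicate 3. In 30 min replicate 2 it was 0.28 against 0.02, and in 3 hr replicate 1 it was -0.34 against -1.63. With the arrays that carried laser RNA in Cy3 alone the KLF5 mean was -0.86 at 30 min and 0.70 at 1 hr, and with those in Cy5 alone it was -1.33 at 30 min and 0.24 at 1 hr.

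**Figure D4:**
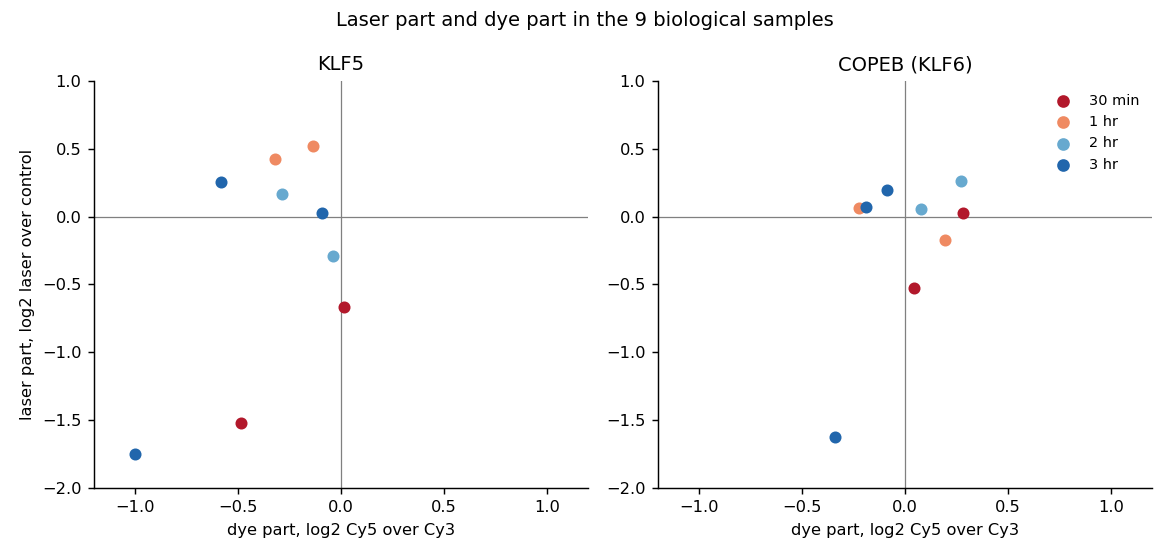
Laser part (log2 laser over control, vertical axis) against dye part (log2 Cy5 over Cy3, horizontal axis) in each of the 9 biological samples, coloured by time, for KLF5 and COPEB. KLF5 points lie at or left of a dye part of 0, with 3 hr replicate 1 at -1.002, and COPEB points lie on both sides. In samples whose direction is not settled the laser and dye parts could change places.

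The levels of both genes over time can be put in order only loosely. For KLF5 the time means ran from 30 min (-1.09) through 3 hr (-0.49) and 2 hr (-0.06) to 1 hr (0.47). For COPEB they ran from 3 hr (-0.45) through 30 min (-0.25) and 1 hr (-0.05) to 2 hr (0.16). The neighbours 3 hr and 2 hr, and 2 hr and 1 hr, were not told apart for KLF5 by the contrasts above, nor were 1 hr and 2 hr for COPEB. The spread in these contrasts is shared over all times and is not that of the compared samples alone. For KLF5 the samples were at 0.52 and 0.43 at 1 hr and at 0.17 and -0.29 at 2 hr. Of these, 1 hr replicate 2 and 2 hr replicate 2 are not settled in direction. Without 3 hr replicate 1 the SE of 2 hr minus 1 hr was 0.30 (limma, unadjusted p = 0.105, adjusted p = 0.979). Across the 9 samples KLF5 and COPEB correlated at r = 0.647 and Spearman's rho = 0.333, and without 3 hr replicate 1 at 0.177 and 0.048 (n = 8). These correlations are a description, since both genes were read from the same hybridizations.

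Of the KLF and SP family, 3 of the 16 probes passed the brightness limit: KLF5, COPEB and TIEG2, the older name of KLF11, a repressor induced by TGF beta in mammals. TIEG2 had sample log2 ratios of 0.45 and -0.27 at 30 min, 0.23 and 0.19 at 1 hr, 0.35 and -0.43 at 2 hr, and -0.36, -0.03 and 0.11 at 3 hr. Its samples lay on both sides of 0 at 30 min, 2 hr and 3 hr. The median of the 3 probes was 0.21 at 1 hr, -0.04 at 2 hr and -0.45 at 3 hr, beside 0.01, 0.00099 and -0.06 over all tested probes, and 0 of the 3 passed p 0.05, adjusted or not, at those times. Without the brightness limit the 16 probes had medians of -0.02, -0.02 and 0.05, and 0 had an unadjusted p under 0.05 in either direction. Of the other 13, the ratios come from dim spots and are not named singly.

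A further list held regulators known in mammals to act with or upstream of KLF5 or KLF6, of which 16 were on the array and 4 bright enough to be tested. These were RARA, a retinoic acid receptor, EP300, a histone acetyltransferase, CEBPB, a leucine zipper factor of acute responses, and JUN, a subunit of AP-1. CEBPB was -0.39 and -0.41 at 30 min, -0.02 and -0.34 at 1 hr, and -0.25 and -0.04 at 2 hr. At 3 hr it was -2.03, 0.27 and 0.03. Its means at 1 hr, 2 hr and 3 hr were -0.18, -0.15 and -0.58. EP300 was 0.0031 and 0.20 at 1 hr, 0.19 and 0.52 at 2 hr, and 0.41, 0.01 and 0.20 at 3 hr. The EP300 signal was above 1000 in both channels on 6 arrays. RARA stayed within -0.14 and 0.22 in the 9 samples, and JUN ran from -0.73 in 3 hr replicate 1 to 0.28 in 30 min replicate 2. The list's median was -0.06 at 1 hr, -0.11 at 2 hr and -0.18 at 3 hr, and 0 of 4 had a p under 0.05 in either direction, adjusted or not, at those times. Without the brightness limit 2 of the 16 had an unadjusted p under 0.05 at 2 hr, both above 0, and 0 at 1 hr and 3 hr. The share over all probes without that limit is not given here, so the count is no result about the list.

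The early genes of wounded cells, mostly AP-1 and EGR factors, were represented by 19 probes, of which JUN, FOSB, JUNB and MYC passed the limit. JUNB, an AP-1 subunit, had sample log2 ratios of 0.19 and -0.81 at 30 min, 0.11 and -0.75 at 1 hr, -0.19 and -0.13 at 2 hr, and -1.18, 0.12 and -0.18 at 3 hr. FOSB was 0.48 and 0.15 at 30 min, 0.32 and -0.22 at 1 hr, -0.03 and -0.05 at 2 hr, and 0.77, 0.07 and 0.31 at 3 hr. MYC, which drives cell growth, lay between -0.44 and 0.15 in all 9 samples. The median of the 4 was -0.10 at 1 hr, -0.11 at 2 hr and -0.23 at 3 hr, and 0 of 4 had a p under 0.05 in either direction, adjusted or not. Without the brightness limit an unadjusted p under 0.05 was reached by 1 of the 19 at 1 hr, below 0, by 2 at 2 hr and by 1 at 3 hr, all above 0. These counts too lack the share over all probes beside them and are no result about the list. In 3 hr replicate 1, where KLF5 and COPEB were low, CEBPB, JUNB, JUN, TIEG2, MYC and RARA were below 0 too and FOSB and EP300 above it, and 66.9% of all tested probes were below 0.

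**Figure D5:**
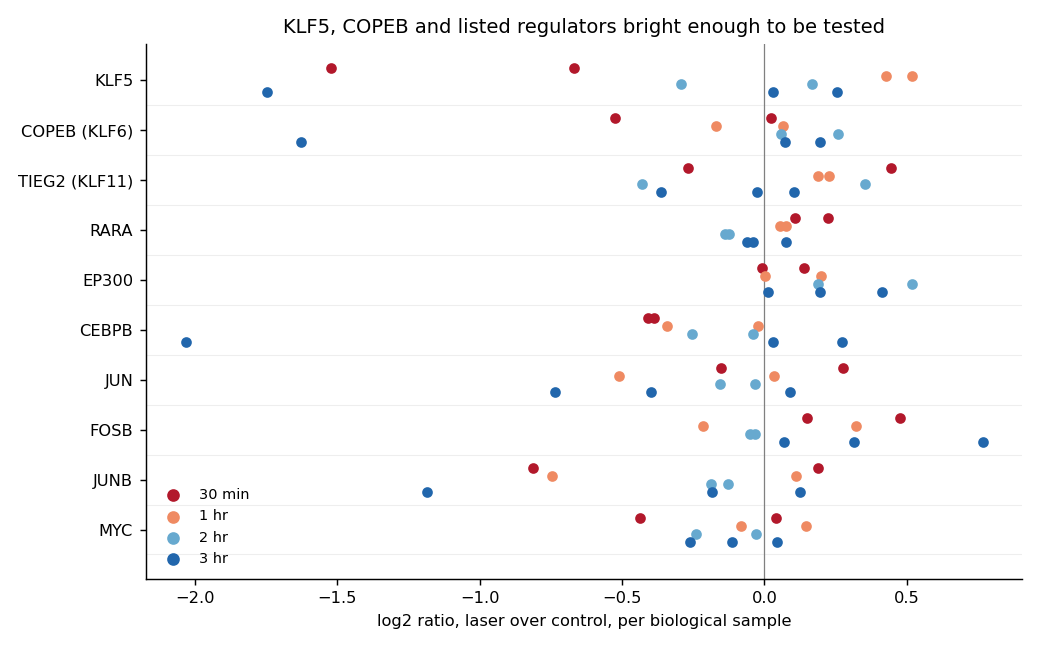
Log2 ratio of laser over control (horizontal axis) in each of the 9 biological samples, coloured by time, for KLF5, COPEB and the 8 listed regulators bright enough to be tested. In KLF5, COPEB, CEBPB and JUNB one 3 hr sample lies below -1.

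The probes whose pattern over the 9 samples was most like that of KLF5, by Spearman's rho among the 377 other tested probes, were HOXA3, MSC and HSF1. Their rho was 0.93, 0.87 and 0.85 and their Pearson r 0.77, 0.83 and 0.83. HOXA3, a homeobox factor of the anterior axis, was -0.09 and -0.15 at 30 min and 0.22 and 0.06 at 1 hr. MSC, the helix-loop-helix factor musculin, was 0.05 and -0.20 at 30 min and 0.41 and 0.32 at 1 hr. HSF1, the heat shock factor, was 0.05 and -0.29 at 30 min and 0.30 and 0.17 at 1 hr. In 3 hr replicate 1 they were at -1.45, -1.44 and -1.23. By Pearson's r the probe most like KLF5 was the one named SRY, named here after its values were seen, with r of 0.87 and rho of 0.80. It was at -1.10 and -1.18 at 30 min and -3.03 in 3 hr replicate 1. The human name SRY was not checked against the chicken gene table, so which chick RNA this probe reports is not known here. For COPEB the most alike were TCEB1, an elongin subunit, GTF2E2, a subunit of TFIIE, and HOXA5, with rho of 0.88, 0.82 and 0.78, and TCEB1 was at -4.39 in 3 hr replicate 1. Without that sample rho was 0.90, 0.81 and 0.79 for the KLF5 set and 0.83, 0.76 and 0.69 for the COPEB set. The probes were picked as the most alike over the same samples, 30 min included, so these values are a description and no check.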

How the data were processed

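The deposited channel files hold linear intensity values of each spot and of its local background. Per the file headers they were measured in ImaGene 4.1 from 1 scanned image, with background not subtracted and no normalization. The series table holds log2 ratios deposited by the authors, equal to the raw ratio of the mean signals to within 6.22e-15, neither normalized nor centred, with the dye of a channel taken from the file name. The authors then applied lowess, left out poor hybridizations and dim genes, and used a t-test; those values were not used here, and all 33 arrays were kept.

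From the 66 channel files, background was corrected with normexp (offset 50) and ratios were normalized by loess within each array, with 18 control identifiers at weight 0. The 2 spots of each gene were averaged, ratios turned to laser over control, and arrays averaged within each dye orientation and then over both. Under limma 3.58.1 and statmod 1.5.0 in R 4.3.3, a model of 1 mean for each time was fitted to the 9 sample values, with 5 residual degrees of freedom and Benjamini-Hochberg adjustment over the 378 probes that passed the brightness limit. Nothing in the sources used here says that samples were separate animals throughout, so p-values measure the spread between these samples. The number of samples, 2 or 3 at each time, limits the precision. The fit and the averaging were tested on simulated data.

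The genes and lists were chosen with earlier results of these data known. Named genes are KLF5, COPEB, the probes of the KLF and SP family, partner and early gene lists that passed the brightness limit, and the 3 probes most like each member. Alternatives covered background correction, normalization, filter, dye direction, averaging, weights, blocks, tests and left-out samples. Probe, promoter and protein sequences were not used here, and the count for the supporting cell markers is not reported here.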

Additional observations from a re-analysis of the deposited data

Results flagged for a closer look

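Between time points, KLF5 at 1 hr minus KLF5 at 30 min came to 1.57 on the log2 scale. It stood out because both 1 hr samples lay above 0 and both 30 min samples below it. With the Cy3 orientation of 1 hr replicate 2 turned, that sample would lie at -0.32. The gene was chosen for its 30 min value, so the difference was not tested.

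Among the 8 arrays at 2 hr, 1 array of replicate 1 with laser RNA in Cy3 gave KLF5 a log2 ratio of 1.64, far from the other 7, which lay between -0.69 and 0.13. These arrays are repeat hybridizations of 2 samples, and 6 such sets of arrays were looked at; chance alone sets apart about 1 in 20.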

How the results depend on the processing

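KLF5 and COPEB were recomputed under 42 alternatives, not all of which bear on each value. Settings that act on samples of other times or on the brightness limit return a log2 ratio unchanged by construction, and they are counted below. None turned an orientation at 30 min. KLF5 at 30 min kept its sign under all that were run, from -1.52 to -0.67, and KLF5 at 1 hr under all of them, from 0.10 to 0.70; the first was the basis of the choice. The contrasts of 2 hr minus 1 hr for KLF5 (-0.89 to -0.035) and of 3 hr minus 2 hr for COPEB (-1.68 to -0.025) also kept their sign. The other values changed sign under some alternatives, and in all 43 of 479 recomputed log2 ratios did so. The cause was not tested.

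Leaving out each sample in turn gave KLF5 -1.52 to -0.67 at 30 min, 0.43 to 0.52 at 1 hr, -0.29 to 0.17 at 2 hr, -0.86 to 0.14 at 3 hr, -0.77 to -0.31 for 2 hr minus 1 hr, -0.80 to 0.20 for 3 hr minus 2 hr and -0.19 to 0.18 over 1 hr to 3 hr. It gave COPEB -0.53 to 0.024 at 30 min, -0.17 to 0.064 at 1 hr, 0.06 to 0.26 at 2 hr, -0.78 to 0.13 at 3 hr, 0.094 to 0.33 for 2 hr minus 1 hr, -0.94 to -0.025 for 3 hr minus 2 hr and -0.23 to 0.079 over 1 hr to 3 hr. The values above 0 for both genes at 3 hr came without 3 hr replicate 1.

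KLF5 at 2 hr was 0.017 with background subtraction and a floor of 50, 0.10 with channels read by file name, 0.10 or 0.064 with either orientation of the unsettled samples turned, 0.17 with those samples left out and 0.10 with laser RNA in Cy3 alone. It was 0.0082 with a plain mean over arrays, which is also the value with the sample as a random block and in the methods' t-test on arrays, 0.020 without the earlier print and 0.026 with the image date as a random block. With background subtraction and a floor KLF5 at 3 hr was -1.08 (limma, adjusted p = 0.256) and COPEB -1.44 (adjusted p = 0.312). With channels read by file name KLF5 at 3 hr was -0.77 (limma, unadjusted p = 0.044, adjusted p = 0.423) and COPEB -0.54 (adjusted p = 0.557). KLF5 was also lower at 3 hr with laser RNA in Cy5 alone (-1.05) and without the earlier print (-0.92). KLF5 at 3 hr was 0.0026 with median centring, 0.14 from the deposited ratios, 0.069 with laser RNA in Cy3 alone and 0.10 with sample quality weights, whose estimation stopped before convergence. For 3 hr minus 2 hr KLF5 was 0.10 with median centring, 0.42 from the deposited ratios and 0.17 with weights, and over 1 hr to 3 hr it was 0.13, 0.16 and, with laser RNA in Cy3 alone, 0.26.

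COPEB without background correction was 0.0074 at 1 hr, -0.037 at 2 hr and -0.044 for 2 hr minus 1 hr. From the deposited ratios it was -0.11 at 2 hr and -0.016 for 2 hr minus 1 hr, and with the Cy5 orientation of the unsettled samples turned it was 0.028 at 1 hr, -0.11 at 2 hr and -0.13 for 2 hr minus 1 hr. With laser RNA in Cy3 alone it was -0.014 at 2 hr, and with weights 0.10 at 3 hr. At a brightness limit of 1200 the COPEB probe was not tested.

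With the 4 unsettled samples left out, KLF5 was called at 3 hr (-1.75) and for 3 hr minus 2 hr (-1.92), and so was COPEB (-1.63 and -1.68), with 103 probes called at 3 hr. By construction, 3 hr replicate 1 then stands alone. With the image date as a random block 1 probe was called at 2 hr and 16 at 3 hr, and with each time fitted alone 2 at 1 hr and 12 at 2 hr; KLF5 and COPEB were not called in these fits. The methods' t-test on arrays gave KLF5 0.49 at 1 hr (unadjusted p = 0.042, adjusted p = 0.808). By it 16 of the 378 tested probes had an unadjusted p under 0.05 at 1 hr. It counts repeat arrays of the same samples as units, and on biological samples the unadjusted p of KLF5 was 0.061. With each time fitted alone KLF5 at 1 hr had an unadjusted limma p of 0.033 and an adjusted p of 0.808.

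Chosen after seeing the data, leaving out arrays on which a gene was not above background plus 2 SD in both channels gave KLF5 0.68 at 1 hr and 0.67 at 2 hr, and COPEB 0.024 at 30 min, -0.0066 at 2 hr and 0.23 at 3 hr. Same-numbered samples of different times deviated together with r from -0.374 to 0.241. With 2 samples at a time the deviations mirror each other, and some samples are unsettled in direction. These values therefore cannot decide whether the numbers pair the samples, and the main fit has no replicate block. With that block KLF5 was 0.44 at 1 hr (limma, adjusted p = 0.993), and no call changed. COPEB was detectable on 15 arrays by background plus 2 SD and on 17 in either channel, against 7. By Pearson's r, 1 of the 3 probes most like KLF5 was still among the highest 3, HSF1 with 3 hr replicate 1 and MSC without it; of those most like COPEB, 0 was with it and 1, GTF2E2, without it. Dim spots limit COPEB throughout.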
